A study of Homo sapiens with 6 samples.

Results

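Mucins are large glycoproteins whose serine- and threonine-rich repeats carry O-glycans, and the genes described here are the mucins among the acceptors of the sugar chain that C1GALT1 extends. Expression was read in AGS cells, a line established from a human gastric adenocarcinoma, which had received either a nontargeting siRNA (si-Control) or a single siRNA against C1GALT1 (si-C1GALT1-3) for 48 h. There were 3 samples per group, each on a one-colour Agilent array. Members were the gene probes whose RefSeq accession on the array belonged to 1 of 10 listed mucins. Probes were matched by accession whatever their values, but the 10 mucins were chosen with earlier results of these data known. Of the 10, 8 had a probe (MUC1, MUC2, MUC4, MUC5B, MUC6, MUC13, MUC15 and MUC16), with 17 probes among the 58201 gene probes and 8 genes among the 22438 genes with a symbol. MUC5AC and MUC20 were not analysed here. Because the arrays measured RNA from whole cultures, fewer cells with a transcript and less RNA per cell cannot be told apart.

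Mucin-type O-glycosylation starts in the Golgi when N-acetylgalactosamine is joined to serine or threonine. C1GALT1 then adds galactose to form the core 1 structure, for which it needs its chaperone C1GALT1C1. Membrane-bound mucins (MUC1, MUC4, MUC13, MUC15, MUC16 and MUC20) span the apical membrane and can pass signals to the cell interior, whereas gel-forming mucins (MUC2, MUC5AC, MUC5B and MUC6) are secreted and make up mucus. In the normal stomach, MUC5AC comes mainly from surface cells and MUC6 from gland mucous cells. MUC2 is the main mucin of intestinal goblet cells.

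Some properties of the arrays touch these values. Arrays with the same replicate number shared a slide, on which si-Control lay in array column 1 and si-C1GALT1-3 in array column 2, so that position and treatment cannot be told apart. On si-Control replicate 2, only 36.5% of gene spots inside a block in the middle of the array were well above background by the mark of the scanner software, against 71.9% outside it. The 9712 gene spots of that block were left out on that array, and 3 of the 17 mucin probes lay in it. All values below are log2 processed intensity after quantile normalization, and differences are si-C1GALT1-3 minus si-Control. The epithelial markers EPCAM, KRT8, KRT18, KRT19, CLDN4, CLDN7 and CDH1 were all well above background. Of the 5 stomach markers, PGC, TFF1 and TFF2 were so on every array, and CLDN18 and GKN1 on none. The 4 leukocyte markers were so on every array of at least 1 group, so the mark alone does not tell cell types apart. The targeted gene, C1GALT1, gave 12.22, 13.03 and 12.62 in si-Control and 11.76, 11.98 and 11.13 in si-C1GALT1-3. The groups did not overlap, with a difference of -1.0 (SE 0.31, adjusted p = 0.265), which did not pass the threshold. C1GALT1C1 differed by 0.27 (SE 0.17, adjusted p = 0.558).

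One mucin gene, MUC1, passed the threshold of the study, which asks for 2-fold or more at an unadjusted limma p under 0.01, and it rose about 5-fold. No mucin gene passed in the other direction, and the remaining 7 did not pass. Over all 58193 probes tested, 1.65% passed with higher signal and 0.992% with lower signal in si-C1GALT1-3. The numbers behind these shares were 961 and 577 probes, but 474 and 706 when the low-signal block was kept, and 783 and 295 with no normalization between arrays. No mucin gene passed an adjusted p under 0.05, and 2 of the 8, MUC1 and MUC15, had an unadjusted limma p under 0.05, as did 13.8% of all probes. For these genes every si-C1GALT1-3 array was above every si-Control array, an arrangement found in 11.0% of all probes. The share of all probes with the opposite arrangement is not given here, so groups apart downward have no such reference. The median difference over the 8 genes was 0.24, with 6 higher (among them MUC16, near background) and 2 lower, against a median of -0.0047 over all probes.

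**Figure D1:**
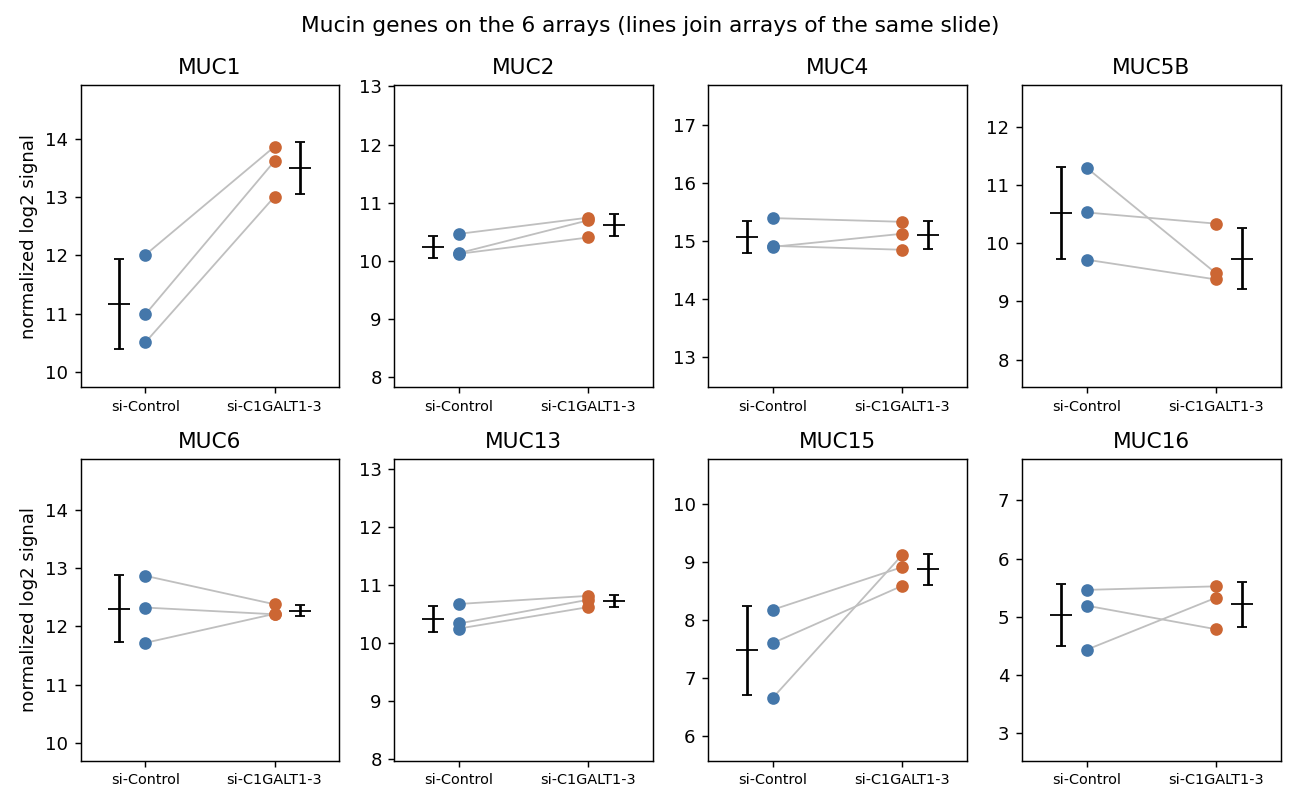
Normalized log2 signal (vertical axes, each spanning the same number of log2 units) of the 8 mucin genes on the si-Control (blue) and si-C1GALT1-3 (orange) arrays, with the probe of highest mean signal for each gene. Points are arrays, gray lines join arrays of the same slide, and black bars give the mean ± SD (n = 3). The groups are apart for MUC1 (10.50 to 12.01 against 13.01 to 13.87) and for MUC15 (6.66 to 8.17 against 8.59 to 9.12), and overlap for the other 6 genes.

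MUC1 is a membrane-bound mucin whose cytoplasmic tail binds catenins and kinases and whose outer subunit can be shed. Its probe with the highest mean signal, A_23_P137856, gave 10.98, 12.01 and 10.50 in si-Control and 13.63, 13.87 and 13.01 in si-C1GALT1-3. Every si-C1GALT1-3 array lay above every si-Control array. The processed intensities before normalization were 2473, 3819 and 1100 units in si-Control and 14294, 16010 and 7135 units in si-C1GALT1-3. On this unnormalized scale as well the lowest si-C1GALT1-3 array exceeded the highest si-Control array. The difference was 2.34 (SE 0.44, 95% confidence interval 1.24 to 3.44), a 5.06-fold rise (adjusted p = 0.137). It ranked 79th among all 58193 probes by size of the rise. Within the slides the difference was 2.64, 1.86 and 2.51, so it pointed the same way on each of the 3.

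The other MUC1 probe, A_33_P3332215, is assigned to a different RefSeq transcript of the gene. It gave 11.06, 11.67 and 10.31 in si-Control and 13.40, 13.57 and 12.89 in si-C1GALT1-3. The groups were again apart, and si-Control replicate 2 was again the highest control. The difference was 2.27 (SE 0.39, 95% confidence interval 1.31 to 3.23), a 4.83-fold rise (adjusted p = 0.118). Within the slides it was 2.34, 1.90 and 2.57. This probe passed the threshold in all 16 alternative settings run on single probes. The brighter probe missed it when si-Control replicate 1 (difference 2.24) or si-C1GALT1-3 replicate 1 (2.29) was left out, and with a test on each probe's own spread in place of limma's.

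MUC1 was the mucin gene that passed the threshold, and MUC4 is a membrane-bound mucin most of whose probes were bright in both groups. For that reason an entry of each is shown from the RefSeq promoter table (GRCh38.p14, a build other than that named in the array files). Each is the 250 bases before a transcription start, 5′ to 3′ on the strand of the gene. Capitals mark the motifs searched, namely the TATA box TATAAA (strand of the gene only), the GC box GGGCGG, the E box CACCTG and the STAT-type motif TTCNNNGAA (both strands), with overlapping matches counted.
MUC1, chr1:155192916-155193165, minus strand: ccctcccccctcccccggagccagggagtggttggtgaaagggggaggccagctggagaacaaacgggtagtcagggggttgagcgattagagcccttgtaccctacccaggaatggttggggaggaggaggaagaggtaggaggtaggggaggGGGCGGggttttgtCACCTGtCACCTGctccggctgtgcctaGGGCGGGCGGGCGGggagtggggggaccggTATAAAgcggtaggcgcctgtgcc
MUC4, chr3:195811930-195812179, minus strand: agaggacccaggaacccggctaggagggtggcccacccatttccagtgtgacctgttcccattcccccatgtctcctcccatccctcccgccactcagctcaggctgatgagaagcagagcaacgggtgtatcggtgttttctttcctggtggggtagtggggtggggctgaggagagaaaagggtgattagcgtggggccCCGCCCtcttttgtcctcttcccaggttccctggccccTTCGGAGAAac
The MUC1 window held 1 TATA box, 24 to 19 bases before the start, 2 E boxes and 4 GC boxes, 3 of which overlap. The MUC4 window held 1 GC box and 1 STAT-type motif, 11 to 3 bases before the start. Among the 35116 windows of that length in the table, 6.8% held the TATA box, 42.6% the GC box, 17.5% the E box and 6.57% the STAT-type motif. An overlapping MUC1 entry with a start a few bases away held the same matches. The windows of MUC2 and MUC13 held none of the 4 motifs, and of the 2 MUC16 windows 1 held a GC box and the other an E box. The G and C content was 66.0% for MUC1, 60.4% for MUC4, 59.6% for MUC2 and 41.6% for MUC13. These matches describe the letters of the windows, and binding was not measured.

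MUC15, a membrane-bound mucin, had the next largest difference. Probe A_23_P24332 gave 6.66, 8.17 and 7.60 in si-Control and 9.12, 8.91 and 8.59 in si-C1GALT1-3, well above background on all 6 arrays. The groups did not overlap, and si-Control replicate 1 was the lowest array. The difference was 1.39 (SE 0.41, 95% confidence interval 0.38 to 2.40), a ratio of 2.62, which did not pass the threshold (adjusted p = 0.246). Within the slides it was 2.46, 0.73 and 0.98, so that slide 1 gave the largest value. Without si-Control replicate 1 the difference was 0.99 (adjusted p = 0.287), and without si-Control replicate 2 it was 1.75 and passed (adjusted p = 0.197).

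**Figure D2:**
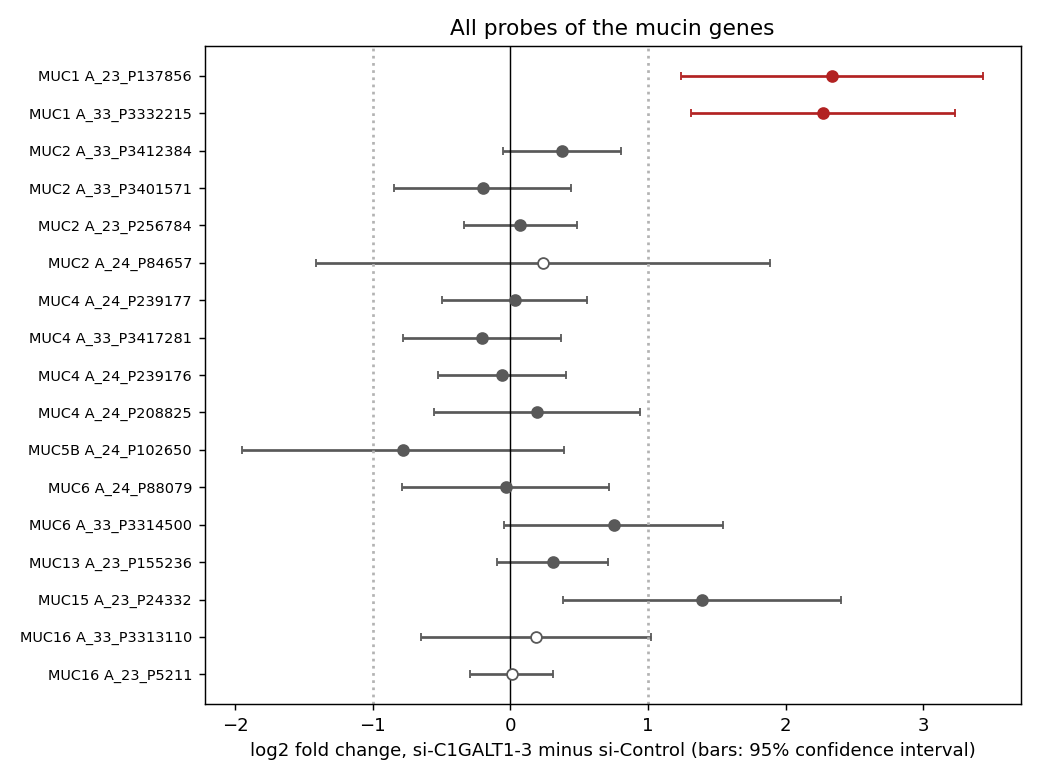
Difference in log2 signal (horizontal axis, si-C1GALT1-3 minus si-Control) for all 17 mucin probes, with 95% confidence intervals from limma. Red marks the 2 MUC1 probes that passed p under 0.01 and 2-fold, open circles mark probes not well above background on every measured array of either group, and dotted lines mark a 2-fold change. Only the intervals of the MUC1 probes and of MUC15 lie wholly above 0.

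The remaining membrane-bound mucins did not pass. MUC4, which forms a complex with the receptor ERBB2, gave 15.40, 14.90 and 14.92 in si-Control and 15.33, 15.12 and 14.85 in si-C1GALT1-3 with probe A_24_P239177. The ranges overlapped almost fully, and the difference was 0.03 (SE 0.21, 95% confidence interval -0.49 to 0.56). The other 3 MUC4 probes differed by -0.21, -0.06 and 0.19. The first was read without si-Control replicate 2 because its spot lay in the low-signal block. The last, A_24_P208825, was far dimmer, with means of 7.05 in si-Control and 7.24 in si-C1GALT1-3. The MUC4 interval excludes the size of the MUC1 rise, although the difference between these genes was not tested.

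MUC13, a membrane-bound mucin of stomach and intestinal epithelium, gave 10.25, 10.67 and 10.33 in si-Control and 10.62, 10.81 and 10.74 in si-C1GALT1-3. The groups overlapped by 1 si-Control array, and the difference was 0.31 (SE 0.16, 95% confidence interval -0.10 to 0.71, adjusted p = 0.48). MUC16, which carries the CA-125 antigen and binds mesothelin, was near the limit of the arrays. Its probe A_33_P3313110 was well above background on 1 array of each group, with values from 4.43 to 5.52 over the 6 arrays. Its other probe, A_23_P5211, was well above background on none. No fold is given for either.

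Among the gel-forming mucins, no gene passed in either direction. MUC2 probe A_33_P3412384 gave 10.13, 10.12 and 10.46 in si-Control and 10.70, 10.40 and 10.74 in si-C1GALT1-3. The highest control lay between the si-C1GALT1-3 arrays, and the difference was 0.38 (SE 0.17, 95% confidence interval -0.05 to 0.80, adjusted p = 0.416). MUC2 probe A_23_P256784 differed by 0.07 and A_33_P3401571, without si-Control replicate 2, by -0.20. The remaining MUC2 probe, A_24_P84657, was well above background on no array.

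MUC5B, a gel-forming mucin best known from the airways and salivary glands, gave 11.30, 9.72 and 10.53 in si-Control and 9.49, 9.38 and 10.34 in si-C1GALT1-3. It had the lowest difference of the 8 genes, -0.78 (SE 0.47, 95% confidence interval -1.95 to 0.39, adjusted p = 0.532). All 3 slides gave a lower value in si-C1GALT1-3, by -1.81, -0.34 and -0.19, but the groups overlapped. MUC6, the gland mucin, gave 12.87, 11.72 and 12.33 in si-Control and 12.38, 12.22 and 12.21 in si-C1GALT1-3 with its brighter probe, A_24_P88079. The si-C1GALT1-3 arrays lay inside the range of the controls, with a difference of -0.04 (SE 0.30, 95% confidence interval -0.79 to 0.72). The 2 MUC6 probes disagreed. The dimmer one, A_33_P3314500, gave 5.69, 5.79 and 5.69 in si-Control, where 2 of 3 arrays were well above background, and 6.45, 5.87 and 7.10 in si-C1GALT1-3. Its groups did not overlap, and the difference of 0.75 (SE 0.32, adjusted p = 0.386) did not pass.

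**Figure D3:**
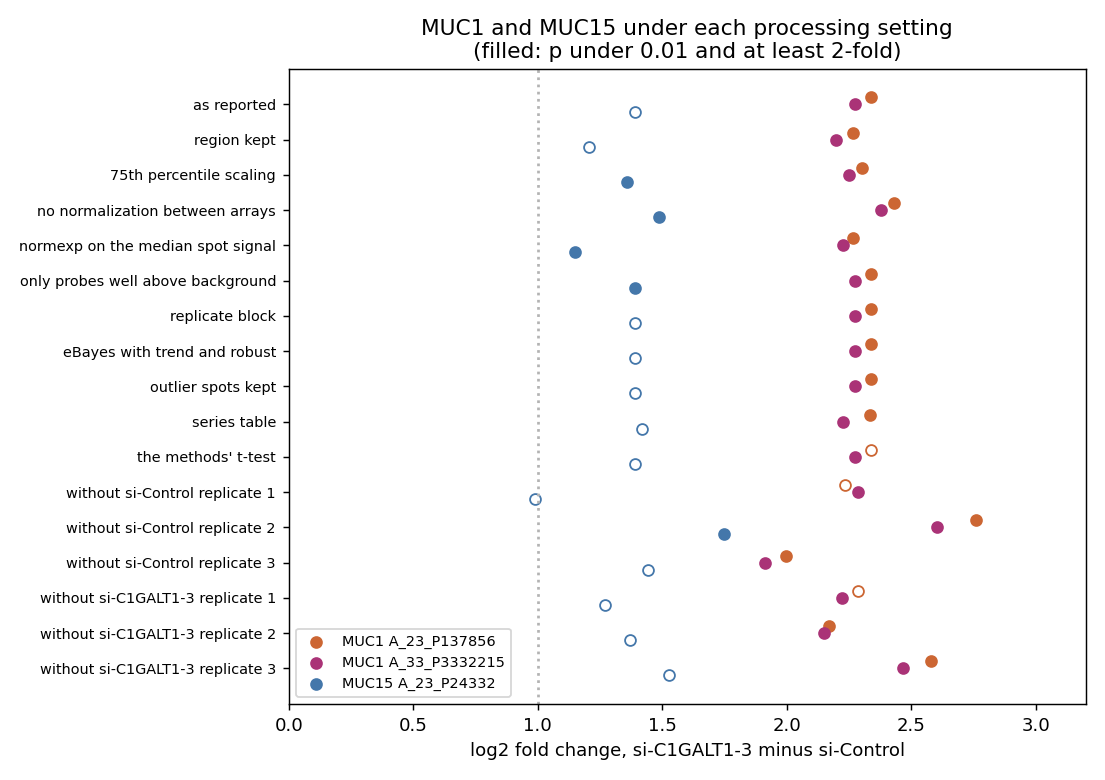
Difference in log2 signal (horizontal axis, si-C1GALT1-3 minus si-Control) of both MUC1 probes and of MUC15 under each processing setting (vertical axis). Filled circles passed p under 0.01 and 2-fold, open circles did not, and the dotted line marks a 2-fold change. MUC1 probe A_33_P3332215 is filled throughout, A_23_P137856 is open in 3 settings, and MUC15 is filled in 5.

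Genes outside the 10 members that encode mucins or mucin-like proteins gave no call. Of 13 listed, 12 had a probe and 10 were well above background on all measured arrays of at least 1 group. The median difference was -0.19, with 3 higher and 9 lower, and none passed the threshold or an unadjusted limma p under 0.05. Over all probes, 1.65% passed the threshold upward, 0.992% passed it downward and 13.8% had such a p. The absence of calls among 12 genes therefore says little about them. The 12 genes were MUC3A, MUC7, MUC12, MUC17, MUC19, MUC22, MUCL1, MUCL3, OVGP1, CD164, EMCN and MCAM.

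Proteins that bind membrane-bound mucins, pass on their signals or shed them were read from a list of 15, all of them well above background. One rose, 1 fell and 13 did not pass, with a median difference of 0.24. Over all probes tested, 1.65% passed with higher and 0.992% with lower signal. MSLN encodes mesothelin, a surface protein that binds MUC16. It gave 12.69, 12.75 and 12.77 in si-Control and 14.16, 14.24 and 14.10 in si-C1GALT1-3. The arrays of each group lay close together and the groups were far apart, with a rise of 1.43 (SE 0.12, 2.70-fold, adjusted p = 0.0499). It was the 1 member of the lists described here with an adjusted p under 0.05. Over all 58193 probes tested, 49 had such a value, and 0.0499 was the smallest. For MSLN the adjusted p was over 0.05 in 14 of the 17 alternatives (up to 0.323). It passed the threshold of 2-fold and p under 0.01 in each of them.

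EGFR, a receptor tyrosine kinase that associates with MUC1, fell at its probe of highest mean signal. It gave 12.51, 12.47 and 11.84 in si-Control and 10.70, 10.92 and 11.01 in si-C1GALT1-3. The groups did not overlap, with a difference of -1.40 (SE 0.23, adjusted p = 0.112). It missed the threshold without normalization between arrays (-1.27, adjusted p = 0.554) and as the median over its probes (-1.12, adjusted p = 0.247). ERBB2, the partner of MUC4, differed by -0.21 and ERBB3 by -0.47, and neither passed. MET, a receptor tyrosine kinase that binds MUC20, differed by 0.71 (SE 0.23, adjusted p = 0.278), and LGALS3, the galactose-binding lectin galectin-3 that binds MUC1, by 0.54 (SE 0.16, adjusted p = 0.247). The groups did not overlap for either, and both were under 2-fold. The largest difference upward was that of HPN, a membrane serine protease, at 1.60 (SE 0.79, adjusted p = 0.462), fitted without si-Control replicate 2. It was 0.89 when si-Control replicate 3 was left out and 2.31 when si-Control replicate 1 was, and with the slide as a block it was 1.22, below MSLN.

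**Figure D4:**
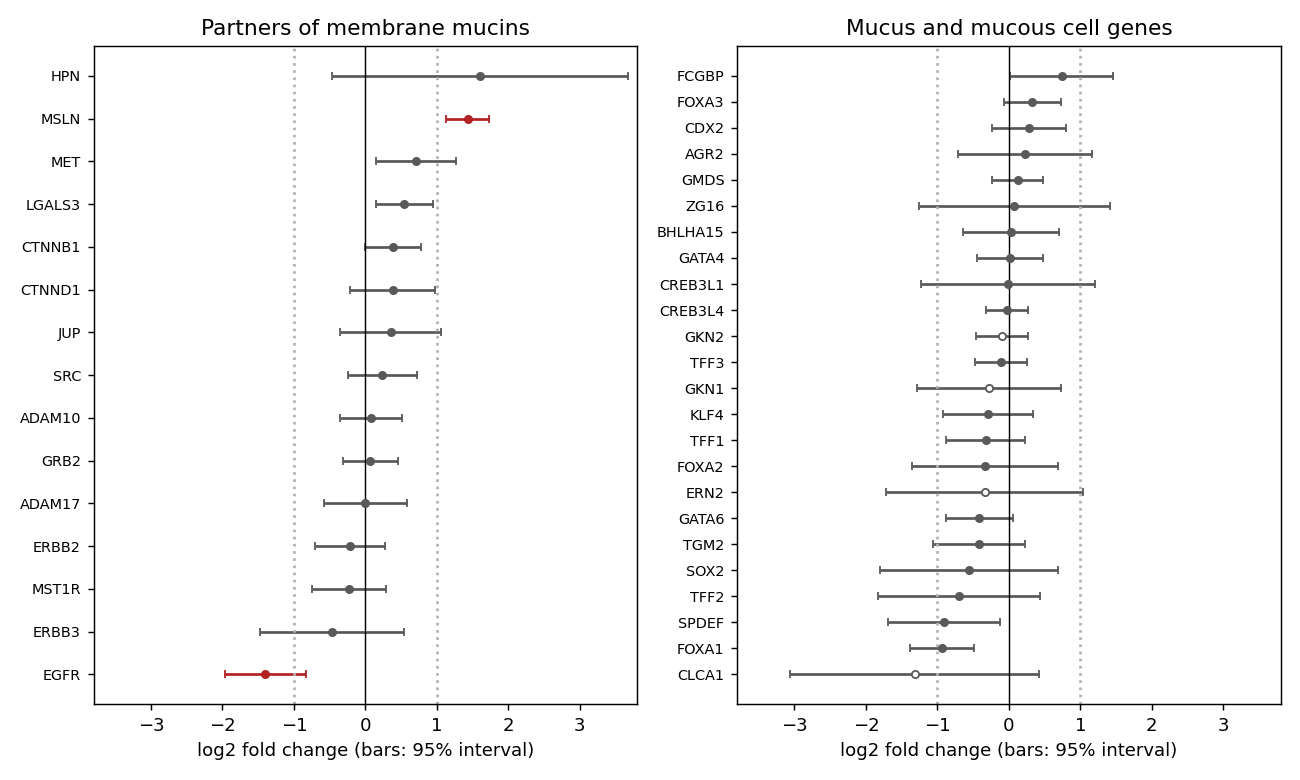
Difference in log2 signal (horizontal axes, si-C1GALT1-3 minus si-Control) with 95% confidence intervals from limma for partners of membrane-bound mucins (left) and for genes of mucus and mucous cells (right). Red marks genes that passed p under 0.01 and 2-fold, open circles mark genes not well above background on every measured array of either group, and dotted lines mark a 2-fold change. MSLN at 1.43 and EGFR at -1.40 are red on the left, and no gene is red on the right.

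Genes co-secreted with mucins, needed to fold them or active in mucous cell transcription gave no call. Of 26 listed, 24 had a probe and 20 were well above background on all measured arrays of at least 1 group, with a median difference of -0.19, 8 higher and 16 lower. Only 1.65% of all probes passed upward and 0.992% downward, so no call among 24 says little about these genes. The trefoil peptides TFF1, TFF2 and TFF3 differed by -0.32, -0.69 and -0.11. FOXA1, a forkhead transcription factor of gut epithelium, gave 11.47, 11.26 and 11.73 in si-Control and 10.43, 10.75 and 10.49 in si-C1GALT1-3. These groups were apart, but the difference of -0.93 (SE 0.18, adjusted p = 0.14) was under 2-fold. It passed when replicate 2 of si-Control (-1.05) or of si-C1GALT1-3 (-1.03) was left out. SPDEF, an ETS factor required for goblet cell maturation, differed by -0.91 (SE 0.31, adjusted p = 0.302), also without overlap, and passed when si-Control replicate 3 was left out (-1.17). The highest and the lowest difference of the list were near background. FCGBP, a mucus protein that binds immunoglobulin, was well above background on 0 of 3 si-Control and 3 of 3 si-C1GALT1-3 arrays. Its groups overlapped, with si-Control replicate 3 at 5.82 and si-C1GALT1-3 replicate 1 at 5.81. The difference was 0.74 (SE 0.29, 95% confidence interval 0.02 to 1.46, adjusted p = 0.354). Its fitted difference ranged from 0.24 to 0.99 over the alternatives. CLCA1, a secreted goblet cell protein, was well above background on 1 si-Control and 0 si-C1GALT1-3 arrays. It differed by -1.32 (SE 0.67, 95% confidence interval -3.06 to 0.43, adjusted p = 0.472), with si-Control replicate 2 left out. Slide 1 gave -0.18 and slide 3 gave -2.93, and the fitted difference ranged from -1.80 to -0.43 over the alternatives.

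Because MUC2 and MUC13 are also made by intestinal cells, intestinal markers were read beside the mucins. All 4 were well above background, and their mean log2 signal was 13.28 to 13.65 on the si-Control arrays and 13.99 to 14.15 on the si-C1GALT1-3 arrays. CDH17, the intestinal liver-intestine cadherin, gave 11.66, 13.05 and 11.92 in si-Control and 13.72, 13.99 and 13.48 in si-C1GALT1-3. It rose by 1.52 (SE 0.39, adjusted p = 0.209). This call was lost in 8 of the 17 alternatives, among them leaving out any array other than si-Control replicate 2 (1.23 to 1.64). VIL1, the microvillus protein villin, differed by 0.83 (SE 0.32, adjusted p = 0.341) and passed without si-Control replicate 3 (1.11), and the intestinal transcription factors CDX1 and CDX2 by -0.23 and 0.28. Whether the level of these markers had a part in the mucin values was not tested.

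The probes whose signal followed MUC1 most closely over the 6 arrays, among 18417 probes with a symbol and well above background throughout, were those of ARL6IP5, MKS1 and DTX3L. ARL6IP5 encodes a membrane protein of the endoplasmic reticulum, MKS1 a protein of the ciliary base and DTX3L a ubiquitin ligase. Pearson's r with the brighter MUC1 probe was 0.999, 0.999 and 0.998. Their differences between the groups were 0.48, 0.67 and 1.15 on the log2 scale, each smaller than that of MUC1. The 6 points share slides and normalization, so that the correlations are a description.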

How the data were processed

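The authors deposited scanner output of Agilent Feature Extraction, version 10.5.1.1, for 6 arrays of AGS cells, in which values are fluorescence intensity per spot, and a series table of background-subtracted intensity equal to that column within a relative difference of 4.8e-09. The processed signal used here is corrected for background by that software and not normalized between arrays. The deposited intensity was log2-transformed. Control spots, outlier spots (100 to 424 per array) and the low-signal block of si-Control replicate 2 were left out. Arrays were quantile normalized, spots of a probe averaged, and groups compared with limma 3.58.1 (lmFit, eBayes) in R 4.3.3, with Benjamini-Hochberg adjustment over all 58193 probes with a fit. A gene was read from its probe of highest mean signal. Symbols came from RefSeq accessions (GRCh38.p14), and a gene was counted as having a probe only if matched in this way. Whether the arrays hold other probes for listed genes without a match was not examined.

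The share of gene spots well above background ranged from 66.2% to 72.7% over the arrays, with 0 saturated. Precision is limited by having 3 arrays per group. The labels do not say whether replicates were separate cultures, so p-values measure only the spread between these samples. Replicates of the same number shared a slide. Their deviations from the group means correlated at 0.200, 0.214 and 0.318, against -0.200 to 0.016 for other pairs. The numbers were therefore taken as pairs in the within-slide differences and in the replicate block. The main limma fit did not use the pairing, and it gave the SE, intervals and p-values except where another setting is named.

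Members, lists, the low-signal block and tests were chosen with earlier results of these data known. Named by rule were all members with a probe, C1GALT1, the calls and the largest rise and fall of each partner list, and the 3 probes most similar to each mucin called. FOXA1, SPDEF, MET, LGALS3, ERBB2, ERBB3, VIL1, CDX1, CDX2 and the trefoil peptides were named after their values were seen. Markers of fibroblasts (2 of 5 well above background), leukocytes (4 of 4) and endothelial cells (2 of 3) gave no call, with COL3A1 at 1.17 (adjusted p = 0.35) and VWF at -1.03 (adjusted p = 0.257) beyond 2-fold. Over all probes, 1.65% passed upward and 0.992% downward. The test was checked on simulated data drawn independently for each array, so that check did not cover the correlation within slides. Alternatives were other scalings and background corrections, filters, test settings, the replicate block, the series table and leaving out each array. The mean spot signal was not used here, and normexp used the median spot signal.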

Additional observations from a re-analysis of the deposited data

How the results depend on the processing

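MUC1 was higher in si-C1GALT1-3 in all 17 alternatives, by 2.00 to 2.76 on the log2 scale, with limma adjusted p from 0.0379 to 0.408, and MUC15 by 0.99 to 1.75, with adjusted p from 0.104 to 0.548. The count of mucin genes past the threshold was 1. It was 2, with MUC15 added, at the 75th percentile scaling, with no normalization between arrays, with normexp and with dim probes left out, and 0 with a test on each probe's own spread. The count of mucin probes was 2, rose to 3 in the same 4 settings and was 1 with the test on each probe's own spread. Leaving out 1 array gave 0 to 2 genes and 1 to 3 probes. The count was 0 genes and 1 probe without replicate 1 of either group, 2 genes and 3 probes without si-Control replicate 2, and 3 probes, with a MUC6 probe added, without si-C1GALT1-3 replicate 2. With the replicate block, MUC1 differed by 2.34 (SE 0.21, limma adjusted p = 0.18), and the block changed no mucin call. C1GALT1 passed with dim probes left out.

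Signs turned for MUC4, MUC16 and MUC6, none of which passed when read from its brightest probe. MUC4 was -0.0549 with the block of low signal kept, -0.11 at the 75th percentile and -0.000999 with the series table, and -0.0820 to 0.196 with 1 array left out. MUC16, near background so that its sign carries no weight, was -0.0298 with the low-signal block kept and -0.12 to 0.40 with 1 array left out. MUC6 was 0.0505 with no normalization, 0.36 as the median over its probes and -0.33 to 0.25 with 1 array left out. The causes were not tested. The 75th percentile scaling moved the median of all probes to -0.11. With 3 arrays a group an exact permutation test cannot go below p = 0.1. MUC16, 1 MUC2 probe, FCGBP and CLCA1 are limited by signal over background.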
